A study of Homo sapiens with 6 samples.

Results

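The ISG15 conjugation system is represented here by 6 genes, ISG15, UBA7, UBE2L6, HERC5, HERC6 and USP18, which were chosen by gene symbol among the 16390 genes listed for SW780 bladder cancer cells. All 6 were listed and all 6 passed the filter on low counts. RNA was sequenced from 3 libraries of Control SW780 cells and 3 libraries of SW780 cells exposed to RC48 at 25 µg/ml. SW780 is an established human bladder cancer cell line. RC48 (disitamab vedotin) is an antibody-drug conjugate in which an antibody against ERBB2 (HER2) carries a microtubule toxin. Neither the length of exposure nor what the Control cells received is given in the sources used here, and no source says whether the replicates were separate cultures, so that p-values measure only the spread between these libraries, which may be technical. The result is for 1 cell line.

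ISG15 is a small ubiquitin-like protein that is attached to other proteins after interferon exposure, a process called ISGylation. UBA7 is the E1 enzyme that activates ISG15, UBE2L6 is the E2 enzyme that carries it, and HERC5 is the main human E3 ligase that transfers it to newly made proteins. HERC6 is the neighbouring relative of HERC5 and the main ISG15 ligase of the mouse. USP18 removes ISG15 from its targets and also dampens type I interferon signalling by binding the receptor chain IFNAR2. Genes of the system are classical interferon-stimulated genes, which the transcription factor complex ISGF3, with STAT2 and IRF9 among its parts, switches on through the interferon-stimulated response element (ISRE) of their promoters. RNA levels of these genes say nothing about how much ISG15 was conjugated.

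In GRCh38.p14 RefSeq coordinates, ISG15 lies at chr1:1013497-1014540 on the plus strand, UBA7 at chr3:49805209-49813953 on the minus strand and UBE2L6 at chr11:57551662-57567935 on the minus strand. HERC6 lies at chr4:88378852-88443097 and HERC5 at chr4:88457119-88506163, both on the plus strand. The pair is separated by 14021 bases in which RefSeq places 0 whole genes. USP18 lies at chr22:18150170-18177397 on the plus strand. Of the 50-base words of the USP18 transcript, 23.4% also occur in another gene, mostly in USP41 (23.0%). Reads from that stretch could be shared between the copies, so the level of USP18 is uncertain to that extent, and no value of USP41 was analysed here. For HERC6 the share was 0.8%, with HERC3, and for the other 4 genes it was 0.0%. UBA7 shares 29 exon bases (0.9% of its exons) with MIR5193 on the same strand.

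Promoter windows from RefSeq (250 bases before and 50 bases from the start) were held for 4 of the 6 genes, with both a nearer and a farther window for UBE2L6. The 250 bases before the start are shown for ISG15 and HERC5 because they contain the ISRE core, searched on both strands as GAAA, any 2 bases and GAAA, and for HERC6 and UBE2L6 because they do not. Sequences run 5′ to 3′ on the gene's strand, and capitals mark the matches, which overlap where 2 cores share bases.
ISG15 (chr1:1013247-1013496, plus strand): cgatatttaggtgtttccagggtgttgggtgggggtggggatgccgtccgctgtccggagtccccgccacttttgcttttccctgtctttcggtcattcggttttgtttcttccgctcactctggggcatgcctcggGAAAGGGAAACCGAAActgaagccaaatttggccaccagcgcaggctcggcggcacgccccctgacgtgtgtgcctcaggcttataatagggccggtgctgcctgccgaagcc
HERC5 (chr4:88456869-88457118, plus strand): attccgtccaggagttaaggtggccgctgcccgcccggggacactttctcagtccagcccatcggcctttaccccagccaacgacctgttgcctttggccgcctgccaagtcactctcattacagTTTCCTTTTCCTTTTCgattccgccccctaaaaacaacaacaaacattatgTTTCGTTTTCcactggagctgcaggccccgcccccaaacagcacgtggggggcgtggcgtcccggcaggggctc
HERC6 (chr4:88378602-88378851, plus strand): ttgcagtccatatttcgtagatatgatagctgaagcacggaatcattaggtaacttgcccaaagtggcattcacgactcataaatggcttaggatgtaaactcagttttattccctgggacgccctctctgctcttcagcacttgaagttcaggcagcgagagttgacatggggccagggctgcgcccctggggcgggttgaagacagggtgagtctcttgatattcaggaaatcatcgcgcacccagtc
UBE2L6 (chr11:57567936-57568185, minus strand): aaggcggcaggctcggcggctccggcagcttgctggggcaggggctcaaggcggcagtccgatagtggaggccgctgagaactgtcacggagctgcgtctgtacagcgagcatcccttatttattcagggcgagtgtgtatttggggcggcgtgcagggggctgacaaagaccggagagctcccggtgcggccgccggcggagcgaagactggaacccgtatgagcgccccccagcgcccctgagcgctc

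The ISG15 promoter held 2 overlapping cores on the gene's own strand, beginning 113 and 107 bases before the start. The HERC5 promoter held 3 cores on the opposite strand, beginning 125, 119 and 74 bases before the start. Neither the HERC6 window nor either UBE2L6 window held the letters. Of all 35116 RefSeq windows of 300 bases, 3.57% held the ISRE core. The GAS motif of interferon-responsive promoters, searched as TTCNNNGAA, was in none of the 5 windows of these genes and in 7.66% of all windows. Among the genes listed in the data with a window, the ISRE core was found in 35 of 50 other interferon-stimulated genes (70.0%), against 541 of 13132 of all listed genes (4.12%). A match describes the sequence only, since no binding was measured.

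All 6 transcripts were higher in every RC48 library than in every Control library. ISG15, HERC6 and USP18 rose by the test across all genes, at 2.30-fold, 1.92-fold and 1.91-fold. HERC5 was 2.14-fold, UBE2L6 1.78-fold and UBA7 1.48-fold higher in the mean without passing the test. Thus 3 of 6 genes were called higher, at an adjusted p-value under 0.05 in edgeR's quasi-likelihood test, against 1.98% of the 13055 genes tested (2.21% in either direction), and 0 of 6 were called lower. At an unadjusted p-value under 0.05, all 6 were higher and 0 were lower, against 11.9% higher and 7.21% lower of all genes. DESeq2 called 5 of 6 higher, against 3.45% of the 14145 genes to which it gave an adjusted p-value. Voom with quality weights called 6 of 6 higher, against 30.4% of all genes. A complete separation in the upward direction was shared by 17.4% of all genes. An exact two-sided permutation test of each gene gave p = 0.1, the smallest value that 3 against 3 libraries can give. The median log2 fold change was 0.94 over the 6 genes and 0.02 over all genes tested. In bulk RNA, more cells with a transcript and more transcript per cell cannot be told apart.

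**Figure D1:**
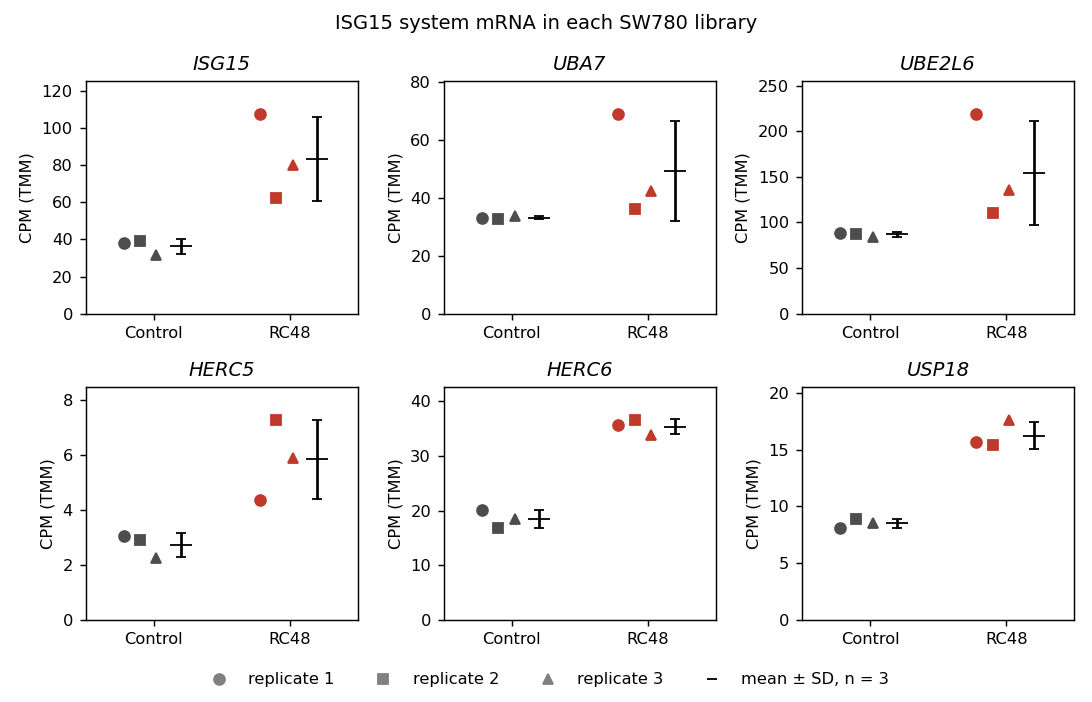
CPM after TMM normalization (y axis from 0) of the 6 genes in the 3 Control and 3 RC48 libraries, with the mean and SD beside each group. Every RC48 point lies above every Control point. The RC48 points of UBA7 spread from 36.3 to 69.0 CPM, and those of HERC6 only from 33.8 to 36.5 CPM.

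ISG15, the modifier itself, was at 38.1, 39.2 and 31.5 CPM in Control replicates 1, 2 and 3 and at 107.5, 62.6 and 80.3 CPM in RC48 replicates 1, 2 and 3. CPM are read counts scaled to library size after TMM normalization. The groups did not overlap, and RC48 replicate 1 was highest and RC48 replicate 2 lowest within its group. The mean went from 36.3 ± 4.16 to 83.5 ± 22.6 CPM (SD, n = 3 libraries each), a log2 fold change of 1.20 (SE 0.21, 95% interval 0.71 to 1.69) with an adjusted p-value of 0.0325.

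The E1 enzyme gene UBA7 was at 33.2, 32.7 and 33.7 CPM in the Control libraries and at 69.0, 36.3 and 42.6 CPM in the RC48 libraries, in replicate order. RC48 replicate 2 lay at 1.09 times the Control mean and replicate 1 at 2.08 times. The log2 fold change was 0.57 (SE 0.23, 95% interval 0.03 to 1.11), and the adjusted p-value of 0.251 did not pass. Without RC48 replicate 1 the log2 fold change of UBA7 was 0.24. The fold change of UBA7 was the smallest of the 6 genes.

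UBE2L6, the E2 enzyme gene, was at 88.5, 87.7 and 84.2 CPM in the Control libraries and at 218.5, 109.9 and 135.1 CPM in the RC48 libraries. As in ISG15 and UBA7, RC48 replicate 1 was highest and replicate 2 lowest. The log2 fold change was 0.83 (SE 0.24, 95% interval 0.28 to 1.39), with an adjusted p-value of 0.154. Without RC48 replicate 1 it was 0.49.

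The 2 HERC genes differed in level and in spread. HERC5, the human ISG15 ligase gene, rested on few counts, with 53, 50 and 38 estimated counts in the Control libraries and 72, 127 and 106 in the RC48 libraries. In CPM this was 3.07, 2.90 and 2.24 against 4.37, 7.25 and 5.90. Here the order within the RC48 group was the opposite of that of ISG15, with replicate 2 highest and replicate 1 lowest. The log2 fold change was 1.09 (SE 0.24, 95% interval 0.54 to 1.65), with an adjusted p-value of 0.0706. HERC6 was at 20.1, 16.7 and 18.4 CPM in the Control libraries and at 35.7, 36.5 and 33.8 CPM in the RC48 libraries. The RC48 libraries of HERC6 lay close together, at 35.3 ± 1.36 CPM (SD, n = 3), and apart from the Control libraries. Its log2 fold change of 0.94 (SE 0.13, 95% interval 0.64 to 1.25) had an adjusted p-value of 0.0128, the lowest of the 6 genes.

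USP18, the ISG15 protease gene, was at 8.10, 8.92 and 8.54 CPM in the Control libraries and at 15.7, 15.4 and 17.6 CPM in the RC48 libraries. The RC48 libraries were close to each other and well above the Control libraries. The log2 fold change was 0.93 (SE 0.14, 95% interval 0.61 to 1.25), with an adjusted p-value of 0.0157.

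The 3 calls depended on single libraries. Without Control replicate 1, 2 or 3, or without RC48 replicate 3, edgeR called 0 of the 6 genes, although 5, 5, 5 and 6 of them had an unadjusted p-value under 0.05. In those fits 0.515% to 0.706% of all genes were called. The number called was 5 without RC48 replicate 1, where 6.82% of all genes were called, and 6 without RC48 replicate 2, where 28.3% were. The adjusted p-value of ISG15 was highest, at 0.217, without Control replicate 3.

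RC48 replicates 1 and 3 stood apart from the other libraries by the base composition of their transcripts. Across 13018 genes, the log2 ratio to the Control mean rose with the GC content of a gene's transcripts in RC48 replicate 1 (Spearman's rho 0.738) and replicate 3 (0.568) but not in replicate 2 (-0.0116), a description across genes that share each library. In replicate 1, the decile of genes lowest in GC had a median log2 ratio of -0.99 and the highest decile 0.67. The library totals were 16453233 to 17026155 estimated counts in Control and 17271978 to 17988030 in RC48, so that every RC48 total lay above every Control total. CPM are scaled for this, and the part of depth in the values was not tested.

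The 6 genes span this range. The GC content was 39.0% for HERC5 (5.88% of genes are lower), 46.9% for HERC6, 51.6% for USP18, 56.4% for UBE2L6, 58.3% for UBA7 and 64.1% for ISG15 (94.2% of genes are lower). The 3 GC-rich genes were highest in RC48 replicate 1 and lowest in replicate 2, the GC-poor HERC5 had the reverse order, and HERC6 and USP18, which lie near the middle, were even across the RC48 libraries. When a smooth GC trend was taken out of each library, the log2 ratios of ISG15 in RC48 replicates 1, 2 and 3 went from 1.57, 0.79 and 1.15 to 0.88, 0.79 and 0.90. Those of HERC5 went from 0.67, 1.38 and 1.09 to 1.56, 1.38 and 1.44. The 3 libraries thus came closer together in both genes. In HERC6 and USP18 they came further apart. The ratios of HERC6 went from 0.95, 0.99 and 0.88 to 1.13, 0.98 and 0.93. Those of USP18 went from 0.88, 0.85 and 1.04 to 0.69, 0.85 and 0.96. For UBA7 the corrected ratios were 0.49, 0.14 and 0.15, with replicate 1 still apart.

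**Figure D2:**
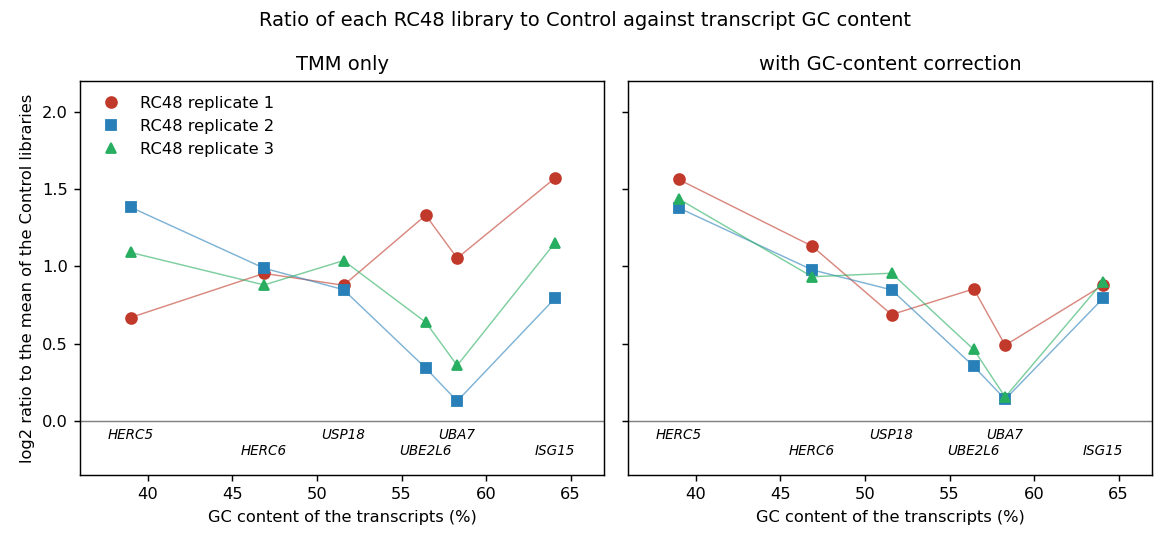
Ratio to the Control mean (log2, y axis) in the 3 RC48 libraries against the GC content of the transcripts (x axis, percent), before (left) and after (right) the GC-content correction, with a line joining the 6 genes of a library. Before the correction replicate 1 runs from 0.67 in HERC5 to 1.57 in ISG15 while replicate 2 runs from 1.38 to 0.79 between the same genes. After it the 3 libraries lie closer in HERC5 and ISG15 but further apart in HERC6 and USP18. Replicate 1 stays higher in UBE2L6 and UBA7, and all values are above 0.

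With the GC-content correction, HERC5 had the largest log2 fold change of the 6 genes, 1.47 (SE 0.17, adjusted p = 0.0019). HERC6 had a log2 fold change of 1.02 (adjusted p = 0.00105), ISG15 one of 0.86 (SE 0.09, adjusted p = 0.000982), USP18 one of 0.84 (adjusted p = 0.00392) and UBE2L6 one of 0.57 (adjusted p = 0.0373). UBA7 was left at 0.27 (95% interval 0.02 to 0.53, adjusted p = 0.179), and at 0.14 when RC48 replicate 1 was also left out. In this fit 5 of 6 genes were called higher, against 4.36% of all genes, and the separation of the groups held for all 6 genes, against 16.8% of all genes. Over 26 alternative fits the adjusted p-value ranged from 1.19e-08 to 0.217 for ISG15, from 1.98e-07 to 0.124 for HERC6, from 5.03e-08 to 0.163 for USP18, from 3.52e-06 to 0.325 for HERC5, from 1.25e-06 to 0.466 for UBE2L6 and from 0.000238 to 0.518 for UBA7. All 26 gave a positive log2 fold change for each of the 6 genes. The order of the genes by fold change differed between the fits. ISG15 came first with TMM only and HERC5 with the GC-content correction, but HERC5 also came first without that correction when RC48 replicate 1 was left out, with a length correction and with limma on log2(TPM+0.1). The difference between the genes' fold changes was not tested.

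**Figure D3:**
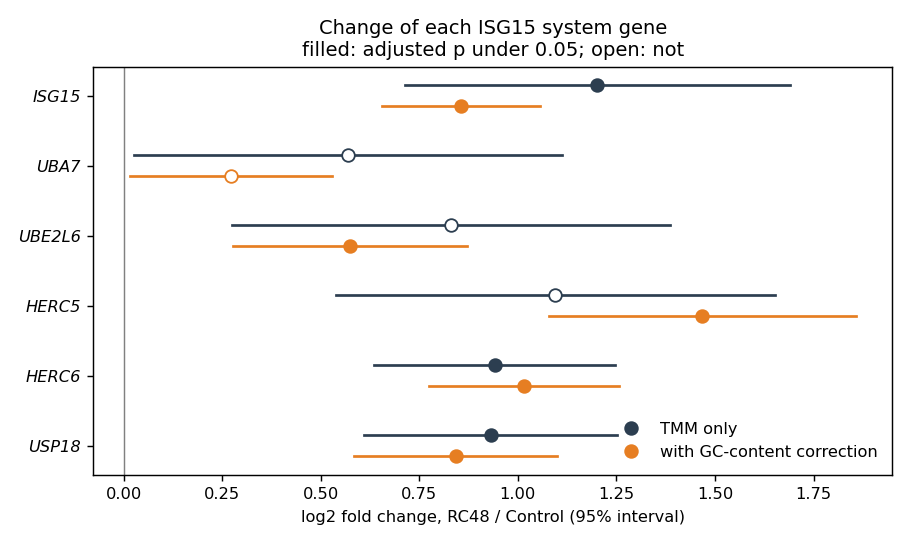
Log2 fold change of RC48 over Control (x axis) with its 95% interval for the 6 genes, fitted with TMM only and with the GC-content correction. Filled points passed an adjusted p-value of 0.05. ISG15 moves from 1.20 to 0.86 and HERC5 from 1.09 to 1.47, and every interval stays above 0.

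Levels between genes were compared per transcript length, in TPM, a unit normalized for length and depth. In Control cells ISG15 was at 199.0 ± 10.9 TPM (SD, n = 3), above 95.03% of the listed genes, and UBE2L6 was at 166.9 ± 4.92 TPM. UBA7 was far lower, at 19.5 ± 1.33 TPM. USP18 at 9.71 ± 0.71 TPM and HERC6 at 9.03 ± 0.91 TPM had overlapping ranges, and HERC5 was lowest at 1.49 ± 0.17 TPM. No other neighbours in this order overlapped in the Control libraries. In RC48 libraries the order of the mean levels was the same. The ranges of ISG15 (344.4 to 407.4 TPM) and UBE2L6 (213.4 to 346.1 TPM) overlapped, but only between different libraries. Within RC48 replicates 1, 2 and 3, ISG15 lay above UBE2L6, at 1.18, 1.61 and 1.62 times its TPM. The ranges of USP18 (15.4 to 18.9 TPM) and HERC6 (15.8 to 18.2 TPM) overlapped again. UBA7 was at 35.8, 21.6 and 23.7 TPM and HERC5 at 2.13, 4.03 and 3.07 TPM in RC48 replicates 1, 2 and 3. HERC5 thus remained the lowest of the 6 genes in every library. The TPM of RC48 replicate 2 was computed from its counts, and the value of ISG15 there would lie between 268.3 and 355.7 TPM with the effective length of any single other library.

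**Figure D4:**
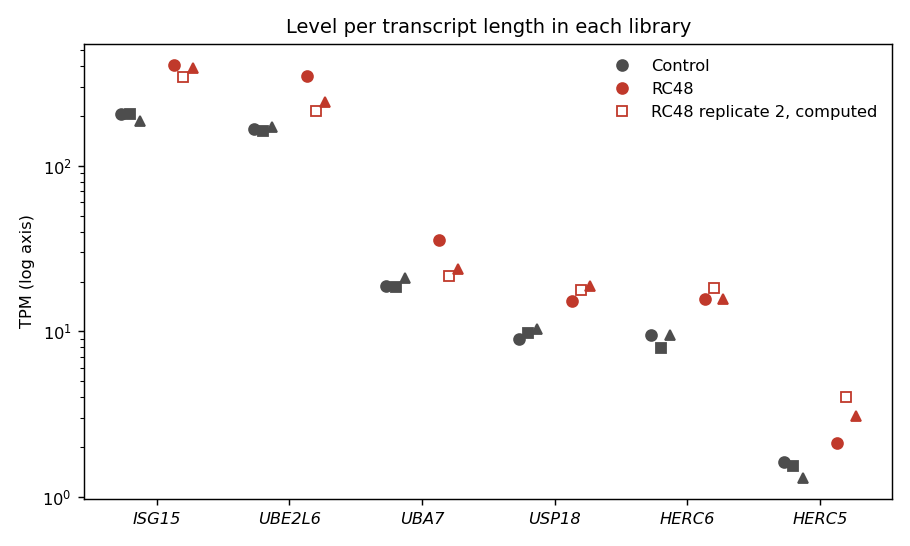
TPM (y axis, log scale) of the 6 genes in each library, ordered by the Control mean, with open squares for the computed values of RC48 replicate 2. ISG15 and UBE2L6 lie above the other 4 genes in every library, and HERC5 lies below them, between 1.30 and 4.03 TPM.

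ISG15 is a very short transcript, and its effective length differed between the libraries. The ratio of counts to deposited TPM, which is proportional to the effective length used in the quantification, was 0.109 to 0.112 of the library's median gene in Control, 0.144 in RC48 replicate 1 and 0.119 in RC48 replicate 3. Only 1.23% of 11533 genes were shorter by this measure. The RC48 to Control ratio of the measure was 1.19 for ISG15, larger than in 98.6% of genes, and 1.00 to 1.06 for the other 5 genes. The RC48 libraries with deposited TPM (replicates 1 and 3) gave ISG15 a fold of 2.01 over Control in TPM and of 2.59 in CPM. For HERC6 the same libraries gave 1.75 in TPM and 1.89 in CPM. A correction for GC content and length together was chosen after the data were seen. With it, ISG15 had a log2 fold change of 0.73 (adjusted p = 0.00257). Its log2 ratios in RC48 replicates 1, 2 and 3 were then 0.56, 0.85 and 0.76. With the GC-content correction alone they were 0.88, 0.79 and 0.90, which lay closer together.

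**Figure D5:**
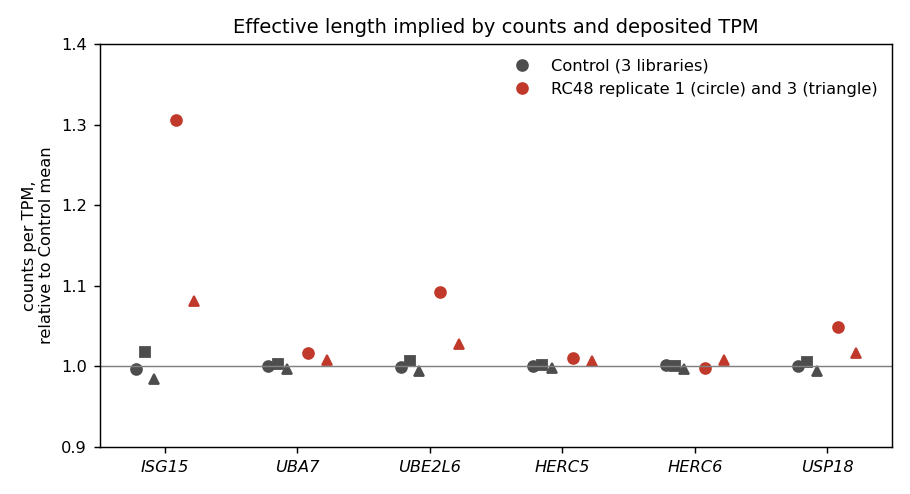
Estimated counts per deposited TPM in each library, relative to the gene's Control mean (y axis), for the 6 genes. RC48 replicate 1 of ISG15 lies at the top, at the ratio of 0.144 to a Control mean of 0.110, while all points of UBA7, HERC5 and HERC6 lie near 1.

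Other genes tied to ISG15 gave no call in the same test. The list of ISG15 ligases, proteases and HERC relatives outside the 6 genes had 13 members tested, of which edgeR and DESeq2 each called 0. This list also held SKP2 and the receptor gene IFNAR2, and IFNAR2 is counted again among the interferon receptors below. At an unadjusted p-value under 0.05, edgeR had 1 higher and 2 lower, against 19.1% of all genes in either direction. Voom with quality weights called 4 higher and 6 lower, against 61.4% of all genes in either direction. Their log2 fold changes had a median of -0.09. Among the most abundant, the deubiquitinase genes USP5 and USP14 had log2 fold changes of 0.37 (adjusted p = 0.30) and -0.19 (adjusted p = 0.441). The large HERC relative HERC2 had 0.26 (adjusted p = 0.477), and TRIM25, itself an interferon-inducible ISG15 ligase gene, had 0.33 (adjusted p = 0.215).

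Enzymes and modifiers of the related ubiquitin-like systems gave 1 call higher and 0 lower among 26 tested, near the 2.21% called of all genes. At an unadjusted p-value under 0.05, 5 were higher and 1 was lower, near the 19.1% of all genes, with a median log2 fold change of 0.02. The call was UBD, which encodes the ubiquitin-like modifier FAT10. UBD had 5 estimated counts in the Control libraries together and 2418 in the RC48 libraries together, and a log2 fold change of 8.80 (SE 0.43, adjusted p = 0.000123) that rests on those few Control counts. The polyubiquitin gene UBB had a log2 fold change of 0.43 (adjusted p = 0.264), the ubiquitin E1 gene UBA1 had 0.49 (adjusted p = 0.264), and RPS27A, a ubiquitin fusion gene, had -0.01 (adjusted p = 0.979).

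Of 17 tested genes for interferon receptors, their kinases and the factors that induce ISG15, 3 were called higher and 0 lower, against 1.98% of all genes called higher. At an unadjusted p-value under 0.05, 9 were higher and 0 were lower, against 11.9% and 7.21% of all genes. IRF9, the DNA-binding part of ISGF3, rose from 24.5 ± 0.41 to 75.2 ± 17.4 CPM (log2 fold change 1.62, SE 0.18, adjusted p = 0.00446). IRF7, an inducer of interferon genes, rose from 3.22 ± 0.30 to 8.77 ± 1.66 CPM (log2 fold change 1.44, adjusted p = 0.0117). STAT2 rose with a log2 fold change of 0.70 (adjusted p = 0.0346). The kinase gene JAK1 had a log2 fold change of 0.21 (adjusted p = 0.333), and the factors IRF1 and IRF3 had 0.53 (adjusted p = 0.0583) and 0.55 (adjusted p = 0.221). The 17 genes had a median log2 fold change of 0.44. Of the interferon genes in the list, IFNL1, IFNL2 and IFNL3 had 2, 1 and 1 estimated counts in all Control libraries together and 2, 2 and 3 in all RC48 libraries together, too few to compare. The other interferon genes of the list were not analysed here.

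Among 61 tested interferon-stimulated genes outside these lists, 21 were called higher and 0 lower, against 1.98% of all genes called higher. At an unadjusted p-value under 0.05, 38 were higher and 0 were lower, against the same shares of all genes, and DESeq2 called 33 higher. Their log2 fold changes had a median of 0.57, and 54 of the 61 lay above 0, against 51.4% of all genes. Of the 4 called genes with the highest levels, the antiviral GTPase gene MX1 rose from 26.8 ± 0.87 to 115.0 ± 4.31 CPM (log2 fold change 2.10, SE 0.12, adjusted p = 0.000229). The oligoadenylate synthetase genes OAS2 and OAS3 rose with log2 fold changes of 1.22 (adjusted p = 0.0108) and 0.76 (adjusted p = 0.0390), and the helicase gene HELZ2 with 1.03 (adjusted p = 0.0298). The 4 most abundant genes without a call were LGALS3BP (0.24, adjusted p = 0.331), the RNA-editing gene ADAR (0.13, adjusted p = 0.473), SAMD9 (-0.20, adjusted p = 0.702) and PARP14 (0.44, adjusted p = 0.149). With the GC-content correction 39 of the 61 were called higher, against 4.36% of all genes. The median of the 6 ISG15 system genes, 0.94, lay above that of this list, and no test was made between them.

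Genes with the pattern most like each of the 6 were sought over the 6 libraries among 12521 genes, by the root mean square difference of the log2 ratio to the Control mean. ISG15 was closest to IFI35 (0.06), an interferon-stimulated gene, followed by PLEKHF1 and CST6, with a GC content of 57.8% to 67.7%. UBE2L6 was closest to DNAJB2 (0.01), PNPLA6 and SLC12A4, which had a GC content of 59.5% to 63.4%. UBA7 was closest to CD68 (0.04), LZTR1 and ACTR1B (GC content 55.8% to 60.8%). HERC5 was closest to RNF150 (0.12), BPGM and TNFSF15, with a GC content of 42.4% to 47.4%. HERC6 was closest to TMEM52B (0.06), AXL and PIK3IP1, with a GC content of 45.8% to 59.4%. USP18 was closest to AMPH (0.07), GADD45A and CAVIN1, with a GC content of 50.2% to 59.9%. The part of the GC trend of the libraries in these likenesses was not tested. Among the 6 genes themselves, HERC6 and USP18 (0.15) and UBA7 and UBE2L6 (0.19) were the most alike, and UBA7 and HERC5 (0.63) the least alike.

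The labelled cell line was checked against markers of epithelial and other cells. All 9 epithelial and luminal markers, among them KRT8, KRT18 and KRT19, were listed and tested, and their summed level was 10082 to 10585 TPM in Control and 9798 to 10950 TPM in RC48 libraries, most of it from KRT8, KRT18 and KRT19. The luminal keratin gene KRT20 was the 1 epithelial marker called lower (log2 fold change -1.55, adjusted p = 0.0489). At an unadjusted p-value under 0.05, 3 of the 9 were lower and 0 higher, against 7.21% and 11.9% of all genes. EPCAM had a log2 fold change of -0.49 (adjusted p = 0.199) and FOXA1 of -0.44 (adjusted p = 0.194). With the GC-content correction 1 of the 9 log2 fold changes lay above 0, against 6425 of 13055 for all genes. Of 6 basal markers 4 were listed, with a summed level of 129.3 to 136.6 TPM in Control and 117.1 to 135.0 TPM in RC48 libraries. Of 6 fibroblast markers 5 were listed, with a summed level of 212.7 to 242.2 TPM in Control and 158.3 to 238.1 TPM in RC48 libraries. Among them the collagen gene COL3A1 was at 95.2 TPM and LUM at 124.8 TPM in Control. COL1A1 was at 3.06 TPM, DCN at 0.04 TPM and PDGFRB at 0.03 TPM, and DCN and PDGFRB had too few counts to be tested. All 3 tested fibroblast markers had an unadjusted p-value under 0.05, 2 of them higher and 1 lower. The lower one was LUM (log2 fold change -0.86, adjusted p = 0.0688). COL3A1 was called higher with the GC-content correction (log2 fold change 0.62, adjusted p = 0.0048), and LUM was not called (-0.36, adjusted p = 0.0901). Of 15 leukocyte markers 11 were listed, with a summed level of 4.84 to 5.67 TPM in Control and 5.005 to 11.0 TPM in RC48 libraries. The pan-leukocyte gene PTPRC had 0 estimated counts in the Control group and 2 in the RC48 group. The myeloid integrin gene ITGAM had 5 and 188 and was the 1 leukocyte marker called higher, of 6 tested. At an unadjusted p-value under 0.05, 3 of the 6 were higher and 0 lower, against 11.9% and 7.21% of all genes. CD3E had 16 and 51 estimated counts and CD14 had 18 and 49, without a call. The part of such markers in the values of the ISG15 system was not tested.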

How the data were processed

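The authors sequenced 3 Control and 3 RC48 libraries of SW780 RNA and processed the reads with SOAPnuke (filtering), Bowtie2 (mapping) and RSEM (quantification per gene). The submitters' notes name hg38, and the annotation is not given in the sources used here. The authors deposited RSEM's estimated counts, which are not normalized and not whole for 11.7% to 15.0% of genes, and for 5 libraries TPM values, normalized for length and depth. TPM of RC48 replicate 2 was computed from its counts and the lengths implied by the other libraries. Applied to RC48 replicate 3, this step differed from the deposited TPM by a median of 0.0367 (absolute log2) over 11982 genes.

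Estimated counts were rounded and filtered with filterByExpr. The test was edgeR 4.0.16's quasi-likelihood test under R 4.3.3 with TMM scaling. P-values were adjusted over all genes by Benjamini-Hochberg with calls under 0.05. The test was also tried on simulated data, which took their spread from the fit of the real data. The study's own test, limma on log2 TPM, was an alternative, since counts were at hand. The GC content came from GENCODE transcripts for 99.6% of genes, and the correction used a loess curve (span 0.3) per library as an offset. Promoters came from RefSeq (GRCh38.p14). The scripts used Python 3.11.15, with limma 3.58.1 and DESeq2 1.42.0.

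The 6 genes and the gene lists were chosen with earlier results of these data known. Named are all 6 genes. Of a list with more than 12 tested genes, the called genes and the 4 of highest mean CPM are named. Of the interferon-stimulated genes, the 4 called and the 4 not called of highest mean CPM are named. Some genes that these rules also named are not reported here. Whether the replicate numbers pair the libraries of the groups is not known. The correlations of deviations of same-numbered libraries were 0.00204, -0.132 and 0.00478. They cannot settle it, since the deviations still hold the GC trend of the RC48 libraries.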

Additional observations from a re-analysis of the deposited data

How the results depend on the processing

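All 6 genes were higher after RC48 in each of 26 alternative fits, 7 of them chosen after the data were seen. With RLE size factors or plain library sizes, without a filter or with a minimum of 10 counts, with a length correction, and with limma on log2(TPM+1) or log2(TPM+0.1) with 6 libraries, 3 genes were called. In those fits 1.56% to 2.69% of all genes were called in either direction. The other fits moved the calls, and the causes were not tested. DESeq2 called 5 genes (UBE2L6 at 0.81, HERC5 at 1.08, as log2 fold changes), where 4.13% of all genes were called in either direction. This DESeq2 share is of the 16366 genes with counts, with or without an adjusted p-value. Voom with quality weights called 6 (UBA7 0.37, UBE2L6 0.62, HERC5 1.01), where 61.4% of all genes were called. The GC-content correction called 5 (UBE2L6 0.57, HERC5 1.47), where 6.83% were called. GC and length together called 5 (0.52 and 1.47), where 9.15% were called. Limma on log2(TPM+1) with 5 libraries called 4 (UBE2L6 0.79), where 23.8% were called.

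Leaving out 1 library, the number called ranged from 0 to 6, while 0.515% to 28.3% of all genes were called. The log2 fold change ranged from 0.97 to 1.37 for ISG15, from 0.24 to 0.75 for UBA7, from 0.49 to 1.02 for UBE2L6, from 0.91 to 1.26 for HERC5, from 0.88 to 1.01 for HERC6 and from 0.85 to 0.97 for USP18. With the GC-content correction and 1 library left out, 4 to 5 genes were called, while 2.05% to 16.2% of all genes were called. The log2 fold change was then 0.14 to 0.33 for UBA7. For UBE2L6 it was 0.40 without RC48 replicate 1 and 0.67 without RC48 replicate 2. HERC5 then had 1.56, 1.53 and 1.33 without Control replicates 1, 2 and 3 and 1.42, 1.51 and 1.46 without RC48 replicates 1, 2 and 3.

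With the replicate number as a block, which is not known to be a pairing, 4 genes were called (HERC5 1.08, adjusted p = 0.0493). In that fit 2.54% of all genes were called. The block with the GC-content correction called 5 (UBE2L6 0.56, HERC5 1.48), where 4.31% of all genes were called.

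Of all genes, 288 were called (89.6% higher). The count was 676 with DESeq2 (72.2% higher), 892 with the GC-content correction (63.8%), 1195 with GC and length together (61.8%), 8018 with voom (49.5%), 2914 with limma and 5 libraries (27.6%), 191 with log2(TPM+0.1) and 194 with log2(TPM+1) and 6 libraries, 563 with block and GC correction (69.1%), 68 to 3726 with 1 library left out and 271 to 2139 with that and the GC correction (1516 without RC48 replicate 1).

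The counts below stand beside these shares of all genes called in either direction. The shares were 4.13% with DESeq2, 6.83% with the GC correction, 9.15% with GC and length, and 4.31% with block and GC. They were 61.4% with voom and 23.8% with limma and 5 libraries. With 1 library left out they were 0.515% to 28.3%, and 2.05% to 16.2% with that and the GC correction. Called genes among the 61 other interferon-stimulated genes were 33 with DESeq2, 39 with the GC correction and 43 with GC and length. They were 33 with block and GC and 51 with voom. With 1 library left out 9 to 39 were called, and 23 to 47 with that and the GC correction (41 without RC48 replicate 2). Of the induction genes, 5 were called with DESeq2, 5 with the GC correction, 6 with GC and length, 5 with block and GC, 13 with voom, 6 with limma and 5 libraries, 0 to 7 with 1 library left out and up to 8 with that and the GC correction. Of the 13 tested genes in the list of ISG15 ligases, proteases and relatives, 2 were called with GC and length and 1 with block and GC. With limma and 5 libraries 4 were called, 0 higher and 4 lower, and with voom 10, 4 higher and 6 lower. With 1 library left out 0 to 5 were called, and up to 2 with that and the GC correction. Of the 26 related ubiquitin-like genes, 0 were called under a minimum of 10 counts, which drops UBD. With limma and 5 libraries 8 were called, 4 higher and 4 lower, and with voom 18, 9 higher and 9 lower. Up to 11 were called with 1 library left out, where the share of all genes was up to 28.3%. Up to 5 were called with that and the GC correction, where it was up to 16.2%.

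HERC5 had the fewest counts of the 6 genes, 38 to 127 a library.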
